A study of Mus musculus with 8 samples.

Results

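Unstimulated macrophages lacking Tpl2 were compared with unstimulated wild-type macrophages on 4 of the 8 arrays of the series, 2 per genotype, over 18193 genes. The cells were mouse bone-marrow-derived macrophages, grown from marrow in medium with macrophage colony-stimulating factor (M-CSF) at 10 ng/mL and purified by adherence between day 7 and day 10. The groups are Tpl2 WT (labelled wild type) and Tpl2 KO (labelled as a knockout and here called Tpl2-deficient), with no stimulus added to either. The other 4 arrays hold the same 2 genotypes treated with LPS from Escherichia coli, 1 μg/mL, and serve here to show how the differences found at rest looked in stimulated cells. The time of LPS treatment, and the strain, sex and age of the mice and the kind of Tpl2 allele, are not given in the sources used here. All groups shared the M-CSF culture, so "at rest" means without LPS and not without growth factor.

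Tpl2 is a serine/threonine kinase encoded by Map3k8. In resting macrophages it is held inactive in a complex with the NF-kB precursor p105 and ABIN-2 (Tnip2). Toll-like receptor signals release it through the IKK complex, after which it phosphorylates MEK and so activates ERK. It is best known for its part in the response to LPS, and a comparison without LPS addresses what its absence leaves in the steady state of the cell.

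Values are log2 intensities normalised by RMA, a method that summarises the probes of each probe set and puts the arrays on 1 scale. Each gene is read from 1 probe set, the brightest on average across all 8 arrays of those that list exactly 1 symbol. A difference is the mean of the Tpl2-deficient arrays minus the mean of the wild-type arrays, so 1 unit is a 2-fold change, and errors of differences are standard errors from the limma fit to all 8 arrays. A gene passed the test when its limma p, adjusted by the Benjamini-Hochberg method across the 18193 genes, was under 0.05. Replicates are termed biological in the labels, but nothing says that they are separate mice or cultures, so a p-value reflects the spread between these samples, which may be technical. The number of arrays limits the precision.

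Map3k8 itself was lower in both Tpl2-deficient arrays. Its log2 level was 9.27 and 9.28 in the wild-type arrays and 8.32 and 8.23 in the Tpl2-deficient arrays, without overlap. The difference was -0.998 ± 0.113 (adjusted p = 0.00237, limma), a 2.00-fold lower signal, and it was -0.9996 in the LPS-treated cells (adjusted p = 0.000125). The signal in the Tpl2-deficient arrays stayed above the array median of 6.53. The sources used here do not say whether the probe set lies inside the part of the gene removed in these mice, so the remaining signal does not measure remaining protein.

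None of the other 11 measured genes of the Tpl2 complex and the MEK-ERK kinases passed the test, next to 0.500% of all genes. Of all 12, 2 were lower at an unadjusted p under 0.05 (limma; 8.48% of all genes), Map3k8 among them. For Tnip2, which encodes the partner ABIN-2, the difference was -0.22 ± 0.11 (adjusted p = 0.417). The MEK genes Map2k1 and Map2k2 gave 0.01 ± 0.13 (adjusted p = 0.987) and -0.32 ± 0.11 (adjusted p = 0.24).

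Few genes passed the test between the genotypes at rest. In all, 91 of 18193 genes passed the test (0.500%): 28 were higher (0.154%) and 63 were lower (0.346%) in Tpl2-deficient macrophages. Of these, 10 of the higher and 16 of the lower genes differed by 2-fold or more. An unadjusted p under 0.05 (limma) was reached by 13.4% of all genes. With 2 arrays a group, a gene that did not pass may still differ. For most genes the genotypes lay close together, with a median absolute difference of 0.115 and 74.5% of genes within 0.2. Arrays of different genotype correlated over probe sets at 0.995 to 0.996, next to 0.997 for replicates of either genotype. The split of the calls depended on the scale: lower genes made up 69.2% of calls on the deposited values, 55.7% after a second quantile normalisation and 43.2% (35 of 81 calls) when arrays were centred on their hybridisation spike-ins. At a threshold of 0.01, 10 higher and 23 lower genes passed, and at 0.1, 49 and 110. Poli (-0.70, adjusted p = 0.0494) lay just inside the threshold, and Btrc (-0.53, adjusted p = 0.0508) and Cd5l (-1.08, adjusted p = 0.0524) just outside.

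**Figure D1:**
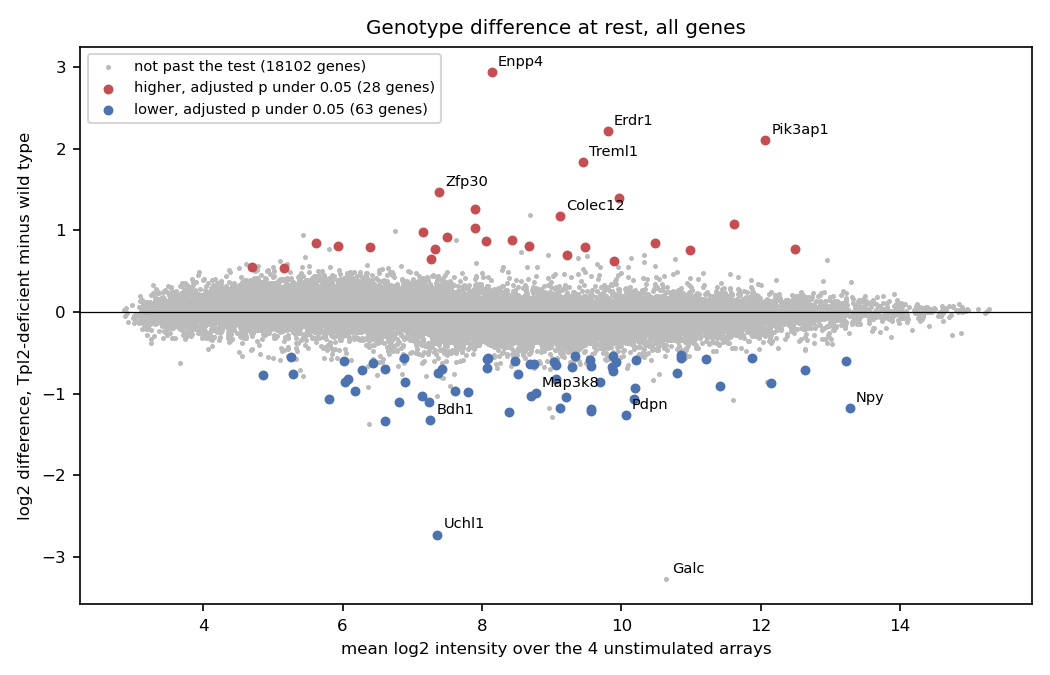
Log2 difference between Tpl2-deficient and wild-type unstimulated macrophages (y axis) against the mean log2 intensity over the 4 unstimulated arrays (x axis), 1 point per gene. Red points are the 28 genes past the test in the higher direction, blue points the 63 in the lower direction and grey points the 18102 others; Enpp4 stands highest, and Galc, at the bottom, did not pass the test, with 6.35 and 11.68 in its 2 Tpl2-deficient arrays.

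The calls rest on 2 arrays a group, and leaving out any 1 unstimulated array cut them. Without wild-type replicate 1 the counts were 15 higher and 21 lower, without wild-type replicate 2 they were 8 and 15, without Tpl2-deficient replicate 1 they were 11 and 29, and without Tpl2-deficient replicate 2 they were 10 and 19. The LPS arrays enter the fit through the spread: without either wild-type LPS array the counts were 21 and 41, without either Tpl2-deficient LPS array 32 and 79, and from the 4 unstimulated arrays alone 16 and 32. All 91 differences kept their direction in each case, but this was fixed beforehand. For these genes the arrays of the genotypes do not overlap, and the LPS arrays do not enter the means at rest. Of the 91, 21 passed in all 4 fits that leave out an unstimulated array and 44 passed in none of them. The 18 that passed in all 4 and have a gene name are Enpp4, Pik3ap1, Treml1, Zfp30 and Abhd3 on the higher side and Galnt9, Bdh1, Pdpn, Gdf3, Stk11ip, Sel1l3, Pot1b, Esco1, Cxcl2, Mocs1, Map3k8, Klc4 and Crlf2 on the lower side. The remaining 3 are cDNA clones.

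Enpp4, a surface enzyme of the ectonucleotide pyrophosphatase family, showed the largest rise. Its log2 level was 6.68 and 6.66 in the wild-type arrays, close to the array median, and 9.71 and 9.51 in the Tpl2-deficient arrays. The difference was 2.94 ± 0.11 (adjusted p = 6.03e-07, limma), or 7.65-fold. A second Enpp4 probe set differed by 1.85 in the same direction (adjusted p = 0.000426). LPS raised Enpp4 in wild-type cells by 4.70 log2 units, to 11.31 and 11.44, so the resting level in Tpl2-deficient cells lay between the resting and stimulated levels of wild-type cells.

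Pik3ap1, which encodes BCAP, an adaptor that links receptors to phosphoinositide 3-kinase, was also among the leading genes. It measured 11.002 and 11.019 in the wild-type arrays against 12.84 and 13.39 in the Tpl2-deficient arrays. The difference was 2.11 ± 0.20 (adjusted p = 0.0012), or 4.30-fold. Its second probe set gave the opposite sign, with 8.43 and 8.51 in the wild-type and 7.91 and 7.35 in the Tpl2-deficient arrays, a difference of -0.84 that did not pass (adjusted p = 0.0737). The 2 probe sets of Pik3ap1 thus disagree on the direction, and the value above is that of the brighter one. None of the other 19 measured genes of the PI3K adaptor and AKT list passed, next to 0.500% of all genes.

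Treml1, a receptor of the TREM family best known on platelets, was higher by 1.83 ± 0.18 (adjusted p = 0.0012). Its levels were 8.68 and 8.38 in wild-type arrays and 10.44 and 10.28 in Tpl2-deficient arrays, a 3.56-fold difference. It was the 1 member past the test (0.500% of all genes) of the 13 measured CD300 and TREM receptors, whose median difference was 0.03. Colec12, a collectin-type scavenger receptor, measured 8.61 and 8.44 against 9.54 and 9.87, a rise of 1.18 ± 0.15 (adjusted p = 0.00533). The other 17 measured scavenger and C-type lectin receptors did not pass, next to 0.500% of all genes that did. Without wild-type replicate 2 the Colec12 value was 1.09 (adjusted p = 0.0841), and without Tpl2-deficient replicate 2 it was 1.01 (adjusted p = 0.0542).

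Lipid enzymes appear on both sides. Abhd3, a phospholipase of the alpha/beta-hydrolase family, measured 7.09 and 7.45 in wild-type and 8.43 and 8.64 in Tpl2-deficient arrays, a rise of 1.27 ± 0.14 (adjusted p = 0.00199). Hpgd, the 15-hydroxyprostaglandin dehydrogenase that inactivates prostaglandin E2, measured 11.02 and 11.14 against 11.94 and 12.38, a rise of 1.08 ± 0.16 (adjusted p = 0.0147). A second Hpgd probe set gave 0.89 (adjusted p = 0.121). Dgat2, which carries out the last step of triglyceride synthesis, rose by 0.65 ± 0.12 (adjusted p = 0.0481), from 6.96 and 6.92 to 7.59 in both Tpl2-deficient arrays. In the opposite direction Bdh1, the mitochondrial 3-hydroxybutyrate dehydrogenase of ketone body metabolism, fell by 1.32 ± 0.12 (adjusted p = 0.0012), from 7.86 and 7.99 to 6.53 and 6.67. Bdh1 and Dgat2 were the 2 members past the test among 19 measured lipid droplet and fatty acid genes, next to 0.500% of all genes. Hpgd lost its call without wild-type replicate 1 (adjusted p = 0.134), wild-type replicate 2 (0.104) or Tpl2-deficient replicate 2 (0.127), and Dgat2 without any 1 of the 4 arrays (0.216 to 0.342).

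Further rises concerned surface receptors and nuclear proteins. Zfp30, a zinc finger protein, measured 6.61 and 6.71 in wild-type and 8.26 and 7.99 in Tpl2-deficient arrays, a rise of 1.47 ± 0.12 (adjusted p = 0.000861), while its second probe set, under the array median, gave 0.02 (adjusted p = 0.97). Gpr34, a receptor for lysophosphatidylserine, went from 6.87 and 7.20 to 7.89 and 8.02 (0.92 ± 0.15, adjusted p = 0.0233). H2-T24, a non-classical MHC class I gene, measured 6.60 and 6.73 against 7.99 and 7.29 (0.98 ± 0.18, adjusted p = 0.0481). The wild-type and Tpl2-deficient arrays did not overlap for any of the 3, which held for all 91 called genes and, as background, for 23.9% of all genes in the higher and 29.2% in the lower direction. Smaller rises included the neighbouring membrane protein genes Tmem176b (0.78) and Tmem176a (0.75), the thyroid-hormone-activating deiodinase gene Dio2 (0.85), and Adgre4 (0.69), which encodes an adhesion receptor related to F4/80.

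Erdr1 had the second largest rise and the least even one. It measured 8.92 and 8.47 in wild-type arrays and 10.44 and 11.38 in Tpl2-deficient arrays, a difference of 2.22 ± 0.32 (adjusted p = 0.0126). The probe set is of the _x_at type, which may bind related sequences, and the gene's other probe set, near background, differed by 0.04 (adjusted p = 0.926). Without wild-type replicate 2 the Erdr1 difference was 1.99 (adjusted p = 0.138), and without Tpl2-deficient replicate 2 it was 1.75 (adjusted p = 0.083).

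**Figure D2:**
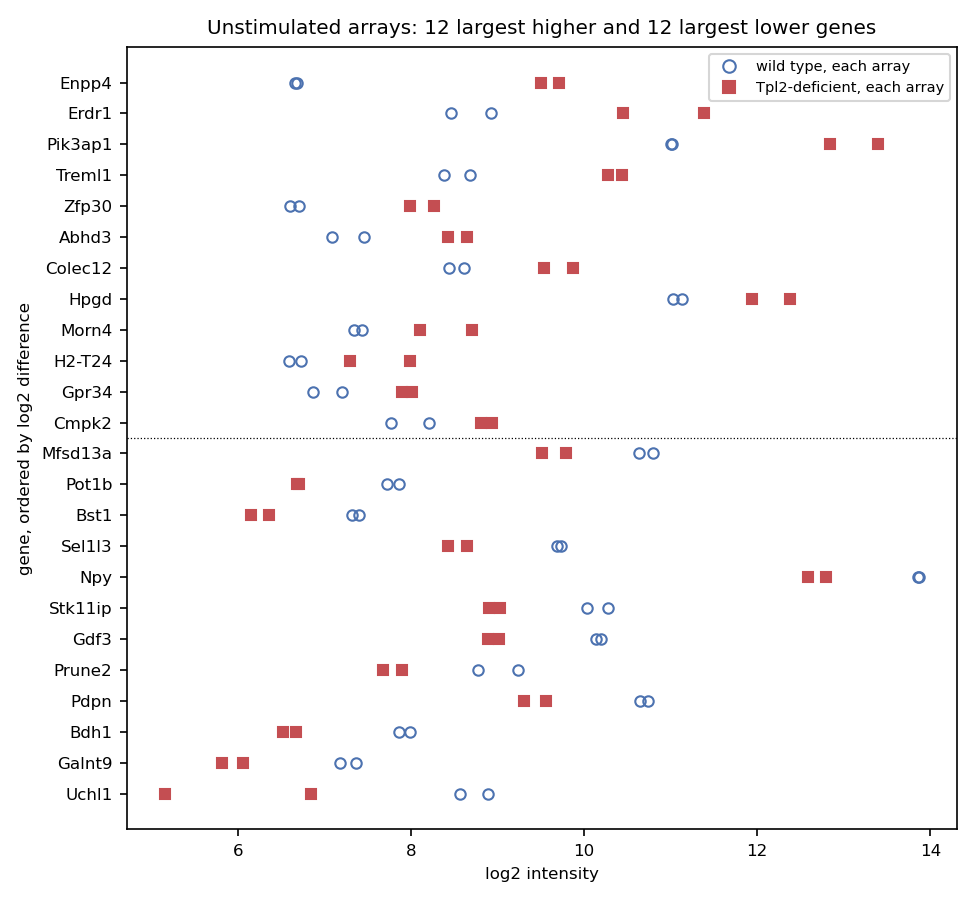
Log2 intensity (x axis) of the 12 largest higher and 12 largest lower named genes past the test (y axis, ordered by difference) in each unstimulated array; open circles are the 2 wild-type and squares the 2 Tpl2-deficient arrays, and a dotted line separates higher from lower genes. The 24 were chosen among genes whose genotypes do not overlap. The widest replicate gap is that of Uchl1 in the Tpl2-deficient arrays (6.84 and 5.15).

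Among the lower genes, Uchl1, a deubiquitinating enzyme abundant in neurons, had the largest difference, -2.73 ± 0.42 (adjusted p = 0.0176). Its levels were 8.56 and 8.89 in wild-type arrays and 6.84 and 5.15 in Tpl2-deficient arrays, whose mean lies under the array median, so no fold is given. The call was lost without wild-type replicate 1 (-2.89) or wild-type replicate 2 (-2.57). The direction of the Uchl1 difference could not change there, since the arrays of the genotypes do not overlap.

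Several secreted and surface proteins were lower. Npy, the gene of neuropeptide Y and one of the brightest on these arrays, measured 13.86 and 13.87 in wild-type and 12.79 and 12.59 in Tpl2-deficient arrays, a fall of 1.18 ± 0.16 (adjusted p = 0.0101). Gdf3, a ligand of the TGF-beta family, fell by 1.21 ± 0.10 (adjusted p = 0.000861), from 10.13 and 10.20 to 9.02 and 8.89, and its second probe set gave -0.91 (adjusted p = 0.00897). Pdpn, the gene of podoplanin, a mucin-like glycoprotein that binds the receptor CLEC-2, fell by 1.26 ± 0.13 (adjusted p = 0.00134), from 10.65 and 10.74 to 9.31 and 9.56. In all 3 genes, chosen among those without overlap, the genotypes lay further apart than the replicates. Crlf2, a subunit of the receptor for thymic stromal lymphopoietin, measured 12.57 and 12.61 against 11.70 and 11.74 (-0.87 ± 0.10, adjusted p = 0.00204). Bst1, which encodes the ADP-ribosyl cyclase CD157, measured 7.32 and 7.40 against 6.36 and 6.16 (-1.10 ± 0.15, adjusted p = 0.00913). Npy lost its call without wild-type replicate 1 (adjusted p = 0.092), wild-type replicate 2 (0.104) or Tpl2-deficient replicate 2 (0.107), and Bst1 likewise (0.0621, 0.104 and 0.0948).

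Growth factor and vessel-related genes were also represented on the lower side, a grouping made after the values were seen. Met, the receptor of hepatocyte growth factor, measured 6.34 and 6.58 in wild-type and 5.79 and 5.43 in Tpl2-deficient arrays (-0.85 ± 0.13, adjusted p = 0.0201), all near or under the array median, and its second probe set gave -0.01 (adjusted p = 0.98). It was the 1 of 26 measured growth factor and receptor genes past the test, next to 0.500% of all genes. The list's median difference was -0.06. Outside that list, Fgfr1 (-0.98), the lymphatic growth factor gene Vegfc (-0.77), Col18a1 (-0.86), which encodes the collagen that yields endostatin, the protein C receptor gene Procr (-0.62) and the coagulation factor VII gene F7 (-0.76) passed. Vegfc was near background in every unstimulated array, with 5.34 and 5.14 in wild-type and 4.49 and 4.44 in Tpl2-deficient cells. Mfge8, which bridges apoptotic cells to phagocytes, was bright and fell by 0.61 ± 0.10 (adjusted p = 0.0312), from 13.52 and 13.53 to 12.96 and 12.88. Selplg, the gene of the P-selectin ligand PSGL-1, measured 12.12 and 12.21 against 11.63 and 11.56 (-0.57 ± 0.10, adjusted p = 0.0344). Pdpn and Selplg were the 2 of 20 measured integrin and adhesion genes past the test, next to 0.500% of all genes. The calls of Met and Selplg were lost without wild-type replicate 1 (adjusted p = 0.0603 and 0.164), wild-type replicate 2 (0.21 and 0.325) or Tpl2-deficient replicate 2 (0.198 and 0.309), and that of Selplg also without Tpl2-deficient replicate 1 (0.177).

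Some lower genes encode intracellular enzymes and regulators, again a grouping made after the values were seen. Galnt9, a glycosyltransferase that starts mucin-type O-glycans, measured 7.18 and 7.36 against 5.81 and 6.06, a fall of 1.33 ± 0.12 (adjusted p = 0.0012) to a level under the array median. Stk11ip, named for its binding to the kinase LKB1, fell by 1.19 ± 0.12 (adjusted p = 0.00164), from 10.04 and 10.28 to 8.91 and 9.03. Pot1b, a component of the telomere-protecting shelterin complex, fell by 1.10 ± 0.11 (adjusted p = 0.0012), from 7.73 and 7.86 to 6.68 and 6.71. The rule that chose these genes required genotypes without overlap. Other genes past the test were Nnt (-0.93), the mitochondrial transhydrogenase that supplies NADPH, the kinesin light chain gene Klc4 (-0.90), the cohesin acetyltransferase gene Esco1 (-1.04) and Mocs1 (-1.03), which acts in molybdenum cofactor synthesis. The Mocs1 probe set may bind related sequences, and the gene's other probe set gave 0.02.

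Chemokine genes, the subject of the series title, gave 1 call at rest. Of 34 measured chemokine ligand genes 1 passed the test, and of 27 chemokine and chemoattractant receptor genes 0 passed, with medians of -0.03 and 0.03. At an unadjusted p under 0.05, 4 ligands were higher and 5 lower, and 1 receptor was higher and 2 lower, next to 4.96% of all genes higher and 8.48% lower. The share of ligands was thus above that of all genes in both directions, and the share of receptors was below it. Ligand differences ran from -1.03 to 0.69. The ligand that passed was Cxcl2, a neutrophil attractant. Its levels were 9.24 and 9.20 in wild-type arrays and 8.19 in both Tpl2-deficient arrays, a fall of 1.03 ± 0.10 (adjusted p = 0.0012), or 2.04-fold. Ccl2 differed by -0.12 ± 0.15 (adjusted p = 0.779), Ccl7 by -0.28 ± 0.11 (adjusted p = 0.317), Ccr1 by -0.54 ± 0.14 (adjusted p = 0.155) and Cxcr4 by 0.09 ± 0.10 (adjusted p = 0.736). For Ccr1, which binds several CC chemokines, the arrays read 8.84 and 8.61 in wild-type and 8.33 and 8.04 in Tpl2-deficient cells. None of 20 inflammatory cytokine genes passed, next to 0.500% of all genes. At an unadjusted p under 0.05, 2 of them were higher and 2 lower (4.96% and 8.48% of all genes). Tnf read 9.53 and 9.40 against 9.18 and 9.31, and Il1b read 7.44 and 7.63 against 7.50 and 7.37.

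The stretch of genome before the Cxcl2 start site is shown because the gene was the 1 chemokine past the test and because its promoter is a textbook target of NF-kB. It is the window of 250 bases upstream of the RefSeq start in assembly GRCm38.p6, chr5:90903649-90903898, plus strand, with the match to the kB consensus in capitals. The capitals hold 2 overlapping matches, 1 on each strand, which begin 97 and 96 bases upstream of the start. A match occurs in the window of 4.46% of all genes that have one. Over all called genes with a window it occurs in 5 of 18 higher (27.8%) and 4 of 50 lower genes (8.0%).
Cxcl2: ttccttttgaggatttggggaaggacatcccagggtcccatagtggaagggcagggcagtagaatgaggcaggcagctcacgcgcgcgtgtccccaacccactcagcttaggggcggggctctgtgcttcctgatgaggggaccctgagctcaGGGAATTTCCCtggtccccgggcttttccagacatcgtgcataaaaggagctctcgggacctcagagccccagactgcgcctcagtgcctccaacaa

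Genes that follow ERK activity gave 1 call in each direction. Of 34 measured ERK-responsive genes, Egr1 passed as higher and Egr2 as lower, while 24 had a negative difference (9262 of all 18193 genes) and 13 were lower and 1 higher at an unadjusted p under 0.05 (8.48% and 4.96% of all genes). The list's median was -0.10, between -0.17 and -0.13 without any 1 unstimulated array, and -0.00 with arrays centred on the spike-ins. Egr1, an immediate-early zinc finger transcription factor, measured 8.15 and 8.39 in wild-type and 9.16 and 9.01 in Tpl2-deficient arrays, a rise of 0.81 ± 0.11 (adjusted p = 0.0107). Egr2, a related factor, measured 9.018 and 8.997 against 8.28 and 8.46, a fall of 0.64 ± 0.11 (adjusted p = 0.0338). Both factors belong to 1 family and moved in opposite directions. The ERK phosphatase gene Dusp6 differed by 0.43 ± 0.20 (adjusted p = 0.375), and Fos, with 13.06 and 13.09 against 13.12 and 12.90, by -0.07 ± 0.11 (adjusted p = 0.839). Others that did not pass included the urokinase gene Plau (-0.72, adjusted p = 0.174), its receptor gene Plaur (-0.59, adjusted p = 0.0528), Phlda1 (-0.63, adjusted p = 0.075) and Junb (-0.52, adjusted p = 0.0864). The Egr1 call was lost without wild-type replicate 1 (adjusted p = 0.134), Tpl2-deficient replicate 1 (0.125) or Tpl2-deficient replicate 2 (0.0542), and the Egr2 call without any 1 of the 4 arrays (0.108 to 0.261) and with spike-in centring (0.12).

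Interferon-stimulated genes had the highest median of the 55 gene lists, 0.27 over 33 measured members, next to -0.00 over all genes. Of the 33, 3 passed as higher and 0 as lower, and 28 had a positive difference, next to 8931 of all 18193 genes. At an unadjusted p under 0.05, 10 were higher and 0 lower (4.96% and 8.48% of all genes). Cmpk2, a mitochondrial nucleotide kinase, measured 8.20 and 7.77 in wild-type arrays and 8.93 and 8.80 in Tpl2-deficient arrays (0.88 ± 0.13, adjusted p = 0.0176). Oasl1, which restrains production of the interferon regulator IRF7, measured 7.85 and 7.40 against 8.56 and 8.41 (0.86 ± 0.15, adjusted p = 0.0312). Gbp2, a guanylate-binding GTPase of cell-autonomous defence, measured 9.16 and 8.99 against 9.93 and 9.82 (0.80 ± 0.10, adjusted p = 0.00656), and its second probe set gave 0.82 (adjusted p = 0.0182). In all 3 genes both Tpl2-deficient arrays exceeded both wild-type arrays. That also held for all 28 higher calls and, as background, for 23.9% of all genes. Rsad2 (0.65, adjusted p = 0.0607), Ifit3 (0.69, adjusted p = 0.144) and Irf7 (0.66, adjusted p = 0.15) did not pass. Ifnb1 itself read 5.60 and 5.75 against 5.62 and 5.89, under the array medians in both genotypes.

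The shift of the interferon list was not evenly shared by the replicates. With each gene centred on its mean over the 4 arrays, the list's median was 0.02 in wild-type replicate 1, -0.25 in wild-type replicate 2, 0.30 in Tpl2-deficient replicate 1 and -0.03 in Tpl2-deficient replicate 2. Wild-type replicate 1 and Tpl2-deficient replicate 2 thus did not separate by genotype. Without wild-type replicate 2 the median difference of the interferon-stimulated genes was 0.10, and without Tpl2-deficient replicate 1 it was 0.09. The calls of Cmpk2, Oasl1 and Gbp2 were all lost without wild-type replicate 2 (adjusted p = 0.14, 0.245 and 0.11), Tpl2-deficient replicate 1 (0.162, 0.211 and 0.0876) or Tpl2-deficient replicate 2 (0.091, 0.127 and 0.0504).

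Of the 33 interferon-stimulated genes 24 have a window in the promoter table, and 11 of these (45.8%) contain the core of the interferon-stimulated response element (ISRE), searched on both strands, in the 250 bases upstream, next to 3.46% of all genes with a window. Of the 3 that passed, Gbp2 has 1 match and Cmpk2 and Oasl1 have none in their windows. Over all called genes with a window the core occurs in 1 of 18 higher and 2 of 50 lower genes. The Gbp2 window is shown because the gene is the interferon-stimulated one with the smallest adjusted p; it is chr3:142620413-142620662 of GRCm38.p6, plus strand, from RefSeq, with the match in capitals (read on the minus strand), 59 bases upstream of the start.
Gbp2: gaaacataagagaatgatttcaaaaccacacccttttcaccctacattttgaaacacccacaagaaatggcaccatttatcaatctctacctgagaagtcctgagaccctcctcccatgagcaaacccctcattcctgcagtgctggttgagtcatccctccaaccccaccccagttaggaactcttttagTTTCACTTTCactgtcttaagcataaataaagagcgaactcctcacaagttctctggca

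NF-kB genes and cell division genes had the lowest medians of the 55 lists, with no member past the test. Of 10 measured NF-kB subunits and inhibitors, 0 passed in limma, 8 had a negative difference (9262 of all 18193 genes) and 6 were lower at an unadjusted p under 0.05 (8.48% of all genes). The median was -0.27, or -0.17 with spike-in centring. The inhibitor gene Nfkbie read 9.49 and 9.43 in wild-type and 9.04 and 8.76 in Tpl2-deficient arrays (-0.55 ± 0.12, adjusted p = 0.103), and the subunit gene Nfkb2 read 9.15 and 9.11 against 8.83 in both (-0.30 ± 0.12, adjusted p = 0.313). Centred medians of the NF-kB list were 0.10 and 0.14 in the wild-type arrays and -0.07 and -0.18 in the Tpl2-deficient arrays, so here the genotypes did not overlap. The same held for the DNA replication list (0.04 and 0.08 against -0.08 and -0.04). Among single members, 7 of 10 NF-kB and 15 of 26 DNA replication genes were lower without overlap, next to 29.2% of all genes. Leaving out any 1 unstimulated array kept the median of the NF-kB list between -0.31 and -0.20.

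Of 30 measured mitosis and cyclin genes 0 passed in limma, 27 had a negative difference (9262 of all 18193 genes) and 13 were lower at an unadjusted p under 0.05 (8.48% of all genes). The list's median was -0.40, or -0.30 with spike-in centring. Cenpa, a centromeric histone, read 10.14 and 10.72 in wild-type and 9.54 and 9.94 in Tpl2-deficient arrays (-0.69 ± 0.19, adjusted p = 0.18), and the kinase gene Plk1 read 8.20 and 8.83 against 7.71 and 8.04 (-0.64 ± 0.21, adjusted p = 0.24). The replicates of a genotype lay about as far apart as the genotypes. Centred list medians were -0.04 and 0.47 in the wild-type and -0.41 and -0.04 in the Tpl2-deficient arrays, so wild-type replicate 1 and Tpl2-deficient replicate 2 were alike. Without wild-type replicate 2 the median of the mitosis list was -0.15, and without Tpl2-deficient replicate 1 it was -0.24. In RNA from a whole culture, fewer cells of a kind and less RNA per cell cannot be told apart.

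**Figure D3:**
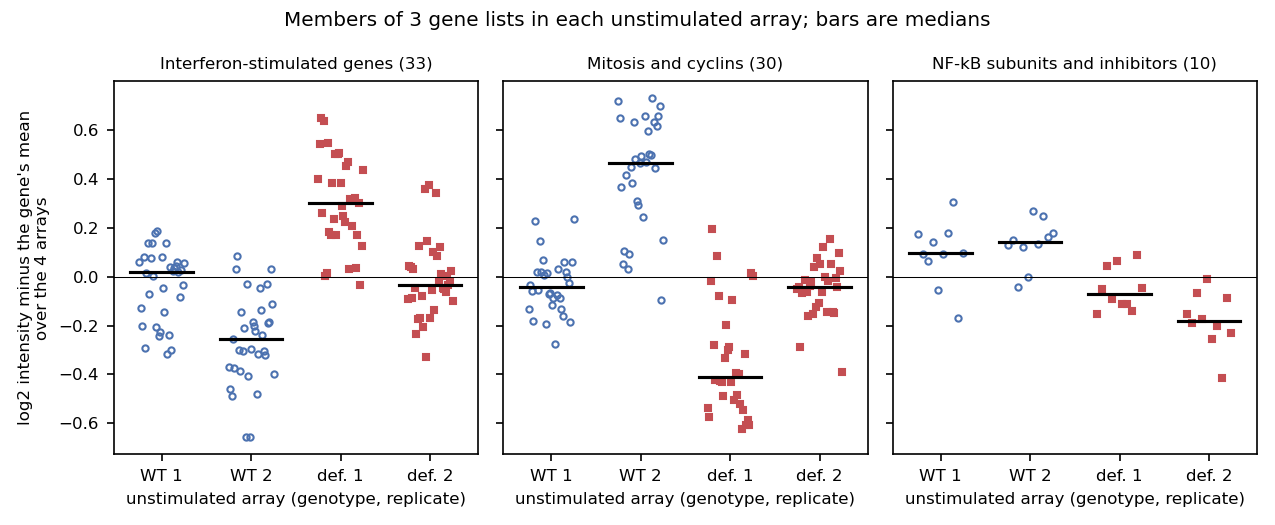
Log2 intensity of each member minus its mean over the 4 unstimulated arrays (y axis) for 3 gene lists, by array (x axis; WT is wild type, def. is Tpl2-deficient, with the replicate number); points are genes and bars are list medians. Wild-type replicate 1 and Tpl2-deficient replicate 2 lie together for the interferon and mitosis lists, whereas both Tpl2-deficient arrays lie below both wild-type arrays for the NF-kB list.

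None of the remaining lists had a median further from 0 than 0.25. The medians furthest from 0 belonged to lists of 4 or 5 measured genes, none of them past the test: 0.25 for the 4 erythroid markers, 0.18 for the 4 sex-linked genes and -0.17 for the 5 B cell markers. The 8 T and NK cell markers all had a positive difference, with a median of 0.11. Cholesterol synthesis genes had a median of -0.15 with 19 of 20 members negative and 0 past the test (3 lower and 0 higher at an unadjusted p under 0.05, next to 8.48% and 4.96% of all genes), but the median was -0.05 with spike-in centring. Toll-like receptor pathway genes had a median of 0.01 over 21 members, MHC class II genes -0.00 over 10, lysosome and cathepsin genes 0.01 over 21 and alternative activation genes 0.07 over 15, each with 0 members past the test. At an unadjusted p under 0.05 these 4 lists held 1, 0, 3 and 3 genes, next to 13.4% of all genes. Il10, an anti-inflammatory cytokine gene, read 6.04 and 6.08 in wild-type and 6.21 and 6.09 in Tpl2-deficient arrays. Enpp4 was the 1 gene past the test of 17 purine receptor and ectoenzyme genes, and Fzd8 of 18 Wnt and Frizzled genes (0.500% of all genes). Fzd8, a Wnt receptor, measured 5.36 and 5.02 in wild-type and 6.07 and 6.01 in Tpl2-deficient arrays (0.85 ± 0.14, adjusted p = 0.0312), all under the array medians, and its second probe set gave -0.00.

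**Figure D4:**
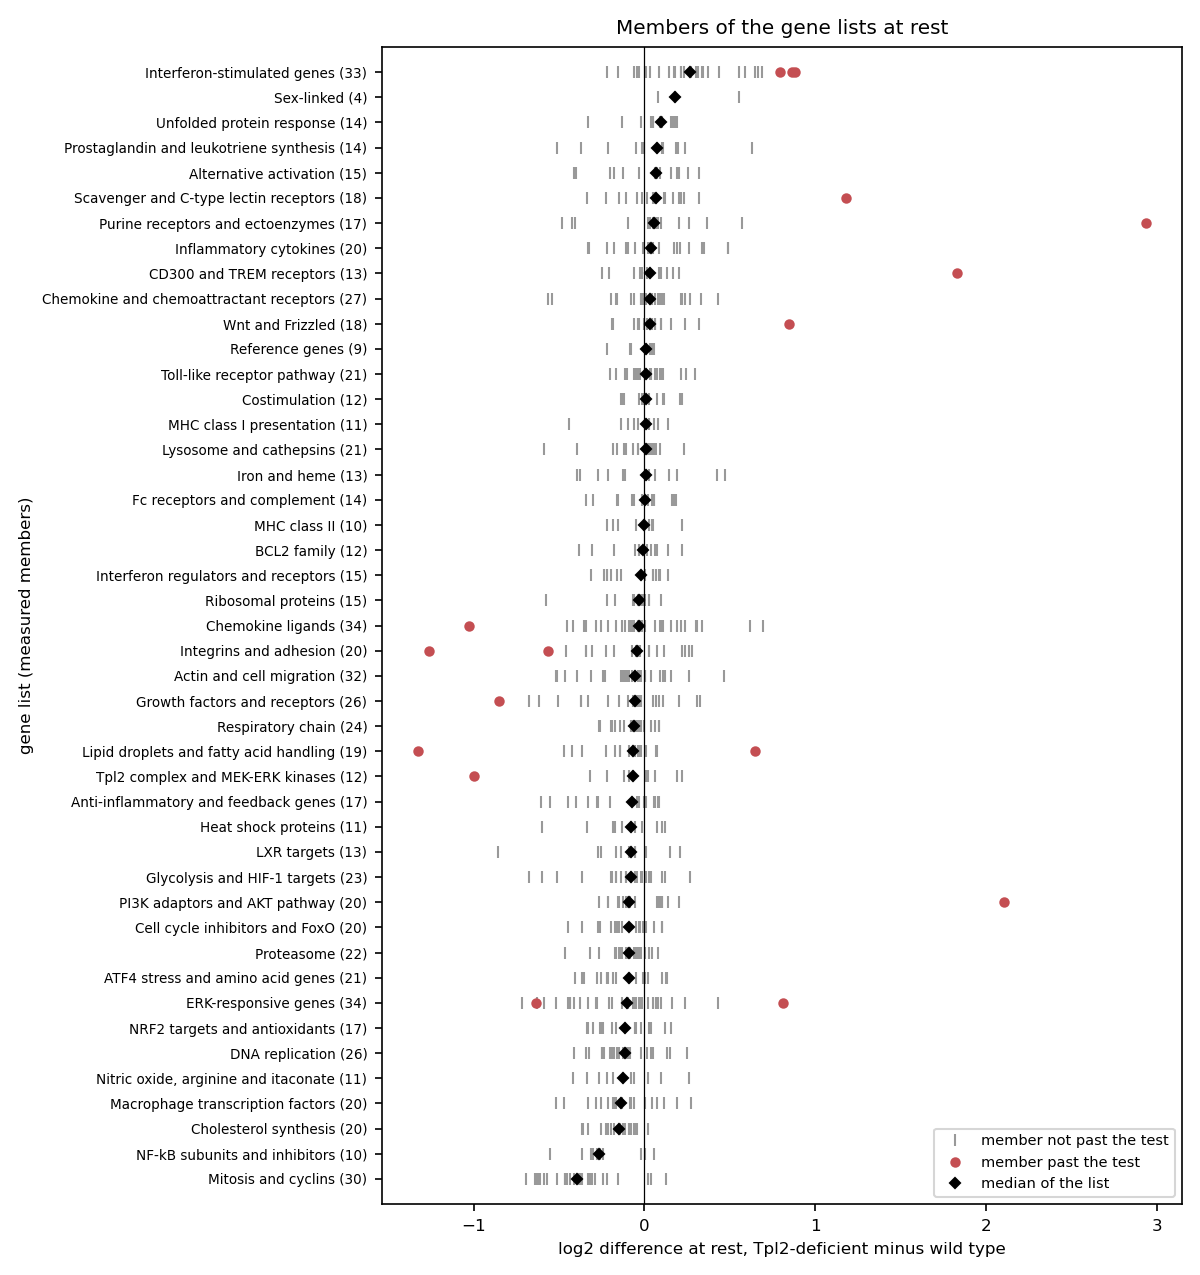
Log2 difference at rest, Tpl2-deficient minus wild type (x axis), of every measured member of the 45 lists that are not markers of a cell type (y axis, ordered by median, with the number of measured members); grey ticks did not pass the test, red circles did, and diamonds are list medians. Most medians lie close to 0, and the interferon-stimulated genes hold the most members past the test, 3 of 33.

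Most macrophage markers were bright in both genotypes: 14 of 15 measured lay above 8 in all 4 arrays, while Cd163 (5.58 to 6.09) lay under the array median. Csf1r, the M-CSF receptor, read 14.74 and 14.72 in wild-type and 14.79 and 14.80 in Tpl2-deficient arrays, and Adgre1, which encodes F4/80, read 13.78 and 13.75 against 13.85 and 13.91. None of the 15 measured macrophage markers passed the test, and their median difference was 0.06. At an unadjusted p under 0.05, 3 of the 15 differed (13.4% of all genes), each without overlap of the arrays: Spi1, the gene of the transcription factor PU.1, by -0.33 (adjusted p = 0.196), Itgam, which encodes CD11b, by -0.34 (adjusted p = 0.224) and Aif1 by 0.42 (adjusted p = 0.232). The summed linear level of these markers was 167670 and 166230 in wild-type and 170700 and 170850 in Tpl2-deficient arrays. No call was made either among markers of stromal cells (8 measured), osteoclasts (7), progenitors (5), mast cells and basophils (7) and erythroid cells (4). The same held for B cells (5), T or NK cells (8), dendritic cells (9) and neutrophils (12). With 0.500% of all genes called, 0 calls in lists this short say little. Of the 63 measured markers of these other cell types, 22 lay above the array median in all 4 arrays, among them the granulocyte genes Csf3r (10.49 to 10.81), Mmp8 (8.86 to 9.42) and S100a8 (8.42 to 8.93), the integrin gene Itgax (10.00 to 10.67), Ighm (8.57 to 9.02), Epor (7.53 to 7.92) and Cd4 (7.48 to 7.84). Cd3g, Ms4a1, Cd79a, Hba-a1 and Mpo lay under it in all 4, and Siglech close to it. Kit, the stem cell factor receptor gene in the mast cell and progenitor lists, read 6.87 and 6.79 in wild-type and 6.24 and 6.18 in Tpl2-deficient arrays (-0.62, adjusted p = 0.0579). The part of these markers in the results was not tested. The stromal markers differed between the Tpl2-deficient arrays, and their part was not tested either. Their summed level was 1098.9 and 1095.2 in wild-type, 1384.8 in Tpl2-deficient replicate 1 and 882.72 in Tpl2-deficient replicate 2. Y-linked transcripts were present and Xist was near background in all 4 arrays.

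Of the RNA quality measures, that of Actb lay slightly higher in both Tpl2-deficient arrays, and that of Gapdh overlapped between the genotypes. The difference between the 3' and 5' probe sets of Actb, which grows as RNA degrades, was 0.81 and 0.67 in wild-type and 0.87 and 0.90 in Tpl2-deficient arrays, and that of Gapdh was 0.09 and -0.03 against 0.07 and 0.06. The mean of the 18 hybridisation spike-in probe sets was 11.61 and 11.77 in wild-type and 11.59 and 11.60 in Tpl2-deficient arrays. The genotype difference of -0.0995 thus lies mostly in wild-type replicate 2. Spike-in centring shifts that array the most relative to the other unstimulated arrays. Their part in the differences above was not tested, apart from the spike-in centring.

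The 4 LPS-treated arrays give the genotype difference of the 91 genes in stimulated cells. They are not independent of the choice of these genes, since the spread in the fit and the choice of probe sets both rest on all 8 arrays. Arrays at rest and under LPS with the same genotype and number may also share a source, which the labels do not say. Under LPS, 77 of the 91 differed in the same direction as at rest, next to 8728 of 18193 genes overall (48%), and 47 passed the test in the same direction, next to 13.7% of all genes past it in either direction. In the opposite direction 4 passed, and 40 did not pass. By direction, 17 of the 28 higher genes (8.01% of all genes were higher under LPS) and 30 of the 63 lower genes (5.73% of all genes) passed the same way. With fewer genes called at rest, those that passed the same way under LPS numbered 20 of 36 without wild-type replicate 1, 14 of 23 without wild-type replicate 2, 25 of 40 without Tpl2-deficient replicate 1 and 16 of 29 without Tpl2-deficient replicate 2. With the arrays at rest and under LPS fitted apart, an alternative added after seeing the data, 48 genes passed at rest, of which 44 differed the same way under LPS and 29 passed that way, next to 9.77% of all genes past the test under LPS. Median differences were 0.86 at rest and 0.61 under LPS for the higher genes and -0.75 and -0.36 for the lower genes. Abhd3, Colec12, Hpgd and Erdr1 were higher under LPS too (1.47, 1.62, 1.11 and 1.48), and Npy, Gdf3, Cxcl2, Pdpn and Uchl1 were lower (-1.31, -1.08, -1.17, -1.81 and -2.44), each at an adjusted p under 0.05 and with no interaction past the test. In the Tpl2-deficient arrays Erdr1 was higher in replicate 2 than in replicate 1 both at rest and under LPS (9.97 and 10.94), and Uchl1 was lower in replicate 2 in both (6.69 and 5.94 under LPS).

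For 36 of the 91 genes the genotype difference itself depended on LPS (interaction at adjusted p under 0.05, limma; 8.59% of all genes passed). The unstimulated arrays that chose the genes are part of this contrast, so both differences are given. The difference was larger under LPS in 6 genes, smaller in 16 and of opposite sign in 14. Without 1 unstimulated array, in the same order as above, the interaction count was 13, 8, 18 and 12, without 1 of the wild-type LPS arrays it was 20 or 17, and without Tpl2-deficient LPS replicate 1 it was 58. Enpp4 went from 2.94 at rest to 0.96 under LPS (interaction adjusted p = 3.11e-05) and Treml1 from 1.83 to 0.56 (0.0107). The 3 interferon-stimulated genes past the test at rest lay near 0 under LPS: Cmpk2 differed there by -0.10, Oasl1 by -0.07 and Gbp2 by -0.11 (interaction adjusted p = 0.00966, 0.0177 and 0.00303). Under LPS these 3 genes were bright in both genotypes, with group means from 13.80 to 14.41. A limit of the scale at such levels was not tested. Bdh1, Galnt9 and Stk11ip, lower by over 1 unit at rest, differed by -0.01, 0.00 and -0.03 under LPS (interaction adjusted p = 0.00079, 0.000839 and 0.00208). The wild-type and Tpl2-deficient means under LPS were 5.76 and 5.74 for Bdh1 and 6.17 in both for Galnt9, under the array medians. Stk11ip, at 8.46 and 8.42, lay above them. A genotype difference may not show at levels under the median, and this was not tested.

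Some genes changed more in the other direction. Egr1 was higher by 0.81 at rest and lower under LPS (-1.73, interaction adjusted p = 6.49e-06). Rras2, a RAS-related small GTPase, was lower at rest (6.87 and 7.04 against 6.22 and 6.28, -0.70 ± 0.11, adjusted p = 0.016) and higher under LPS (1.70, interaction adjusted p = 5.5e-06). Rasgef1a and Pop5 also passed in opposite directions, with -0.57 and -0.66 at rest and 0.82 and 0.56 under LPS. The remaining probe set of Pop5 gave 0.16 at rest, so its direction there depends on the probe set. Small differences at rest grew under LPS for Flrt3 (-0.71 to -3.57), Bst1 (-1.10 to -2.83), Vegfc (-0.77 to -2.30) and Met (-0.85 to -2.06). Flrt3, a leucine-rich repeat surface protein, read 6.65 and 6.62 in wild-type and 6.03 and 5.81 in Tpl2-deficient arrays at rest, near or under the array medians.

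**Figure D5:**
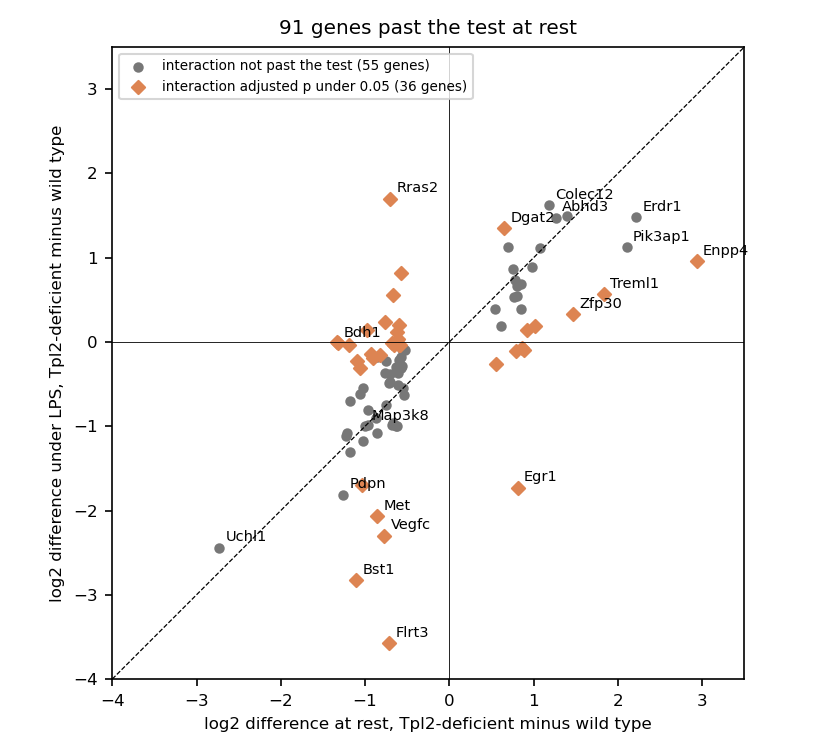
Log2 difference between Tpl2-deficient and wild-type macrophages under LPS (y axis) against that at rest (x axis) for the 91 genes past the test at rest; the dashed line marks equal differences, and diamonds are the 36 genes whose difference depended on LPS. Uchl1 and Map3k8 lie near the line, Enpp4 and Bdh1 lie nearer 0 on the y axis, and Egr1 and Rras2 change sign.

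Probe sets not used above give a partial second reading on the same arrays. Of the 91 called genes 44 have at least 1 other probe set with a single symbol, 58 in all, of which 43 differed in the same direction as the one used, 9 passed the test that way and 0 passed in the opposite direction. Among the 35 of these above the array median, 29 had the same direction. Besides those given above, the other probe sets differed little for Esco1 (0.19), Sel1l3 (0.11), Dgat2 (0.14), Cmpk2 (0.24) and Rras2 (-0.10). Adjusted p in limma was 0.509, 0.739, 0.7, 0.723 and 0.808. For Esco1 and Sel1l3 the sign was opposite to that of the probe set used (-1.04 and -1.17). Both other probe sets of Tmem176a gave higher values in Tpl2-deficient cells (1.11 and 0.71, adjusted p = 0.00165 and 0.0254).

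Called genes were unevenly spread over the chromosomes of GRCm38.p6. Chromosome 18, which carries Map3k8, held 10 of 463 tested genes (2.16%), chromosome 17 held 12 of 839 (1.43%) and chromosome 5 held 16 of 1131 (1.41%), next to 0.500% of all genes, while chromosomes 11, 14 and 15 held none of 1452, 648 and 729. No test was made of this spread. Among the 25 measured genes nearest to Map3k8 in gene order (5 on one side and 20 on the other), Fzd8 and Colec12 were called, both higher (8.0%). Abhd3 (1.27) and Esco1 (-1.04) lie within 10 measured genes of Fzd8 and Colec12. Within 10 measured genes on either side, 22 of the 91 have another called gene, with both genes of a pair counted. The number to be expected with 0.500% of all genes called was not computed, so this count does not measure clustering.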

How the data were processed

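Total RNA from the macrophages was labelled with biotin, per the labels' protocols, and hybridised to mouse expression arrays. The authors deposited 1 table of log2 intensities for 45101 probe sets in the 8 arrays; the submitters' processing notes list GCOS and RMA, without versions or roles. RMA pools signal over the probes of a set and shrinks differences of dim genes, and no detection calls were used here, so low levels are set against the array median. Of the probe sets, 34945 with exactly 1 symbol were used, 932 list several symbols, 9160 none and 64 are controls; 18193 genes resulted, and 9010 had more than 1 probe set. Names of 18145 genes matched the RefSeq table of assembly GRCm38.p6. The files name no build, and that table gave only names, gene order and promoter windows.

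The log2 values were fitted in R 4.3.3 by limma 3.58.1, with two-sided moderated tests from lmFit and eBayes and 1 mean for each of 4 groups, which left 4 residual and 6.87 prior degrees of freedom. Comparisons were genotype at rest, genotype under LPS and their difference. The same steps were tested on simulated data. Gene lists (55, with 908 of 990 entries measured) and members were chosen with earlier results of these data known, and lists are described by counts and medians without a set test. The 12 largest named genes per direction whose groups did not overlap, up to 4 members past the test per list, and 17 measured genes of a fixed set of 20 are given by array; other genes named were chosen after their values were seen, and clones and predicted genes are not named. The alternatives averaged all probe sets of a gene or used no _x_at or _s_at probe sets, repeated quantile normalisation, centring on array medians or spike-ins, only genes above the median, a variance trend, a robust prior, array weights, only the 4 unstimulated arrays, the replicate number as a block, and 7 of the 8 arrays at a time.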

Additional observations from a re-analysis of the deposited data

Results flagged for a closer look

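For 42 of the genes reported, the genotype difference was not the same with and without LPS, by the limma interaction over all 18193 genes. Each value here is the genotype difference under LPS minus that at rest, in log2 units. The unstimulated arrays chose the genes past the test at rest and also enter this value.

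Among 10 genes higher at rest, the value was -2.54 for Egr1, -1.98 for Enpp4, -1.27 for Treml1, -1.13 for Zfp30, -0.98 for Cmpk2, -0.93 for Oasl1, -0.90 for Gbp2, -0.84 for Morn4 and -0.77 for Gpr34, that is, towards or past 0. For Dgat2 it was 0.70, a larger rise under LPS. Under LPS Gpr34 averaged 3.91 in wild-type and 4.05 in Tpl2-deficient cells, near background.

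Among 23 genes lower at rest, 5 were lower still under LPS: Flrt3 (-2.86), Bst1 (-1.72), Vegfc (-1.53), Met (-1.21) and Esco1 (-0.65). The other 18 moved up. These were Rras2 (2.41), Rasgef1a (1.40), Galnt9 (1.34), Bdh1 (1.31), Pop5 (1.22), Stk11ip (1.16), Fgfr1 (1.13), Smc2os (0.99), Pot1b (0.87), Nnt (0.79), Gtf2h4 (0.79), Klc4 (0.71), Alkbh6 (0.67), Fkbp9 (0.66), Nme4 (0.64), Hyal2 (0.61), Padi4 (0.57) and Ube2s (0.54). Galnt9, Bdh1, Smc2os and Padi4 had LPS means under the array medians in both genotypes.

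A further 9 genes did not pass at rest and were in the set named whatever their p. Of the ERK-responsive and cytokine genes among them, Dusp6 had -3.47, Il10 -2.82, Fos -2.74 and Il1b -2.66. Chemokine genes gave -3.41 for Ccl7, -2.24 for Ccl2 and -2.88 for the receptor gene Ccr1. Cxcr4 (1.68) and Ifnb1 (2.49) went the other way.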

How the results depend on the processing

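The main counts were 28 higher and 63 lower genes at rest, 36 of them with an interaction and 47 past the test the same way under LPS. Centring on the spike-ins gave 46 higher and 35 lower genes. Array weights gave 142, 389, 144 and 104 for the 4 counts, a mean-variance trend gave 99 lower genes with 57 interactions and 75 shared with LPS, and only the 4 unstimulated arrays gave 16 and 32, where the last pair of counts cannot be computed. Leaving out 1 array at a time, of all 8, gave 8 to 32 higher genes, 15 to 79 lower genes, 8 to 58 interactions and 14 to 56 shared with LPS. The cause of these changes was not tested. A replicate block gave 28, 57, 34 and 46 and kept 71 of the 91 calls. The replicate numbers were not taken to pair the samples, since deviations from the group means over all genes correlated at 0.1 between the genotypes at rest, no more than the limit for pairing, and at -0.12 between rest and LPS in Tpl2-deficient cells, although a few genes there repeat by number. With genotype and number as a random source, added after seeing the data, the 4 counts were 26, 59, 31 and 45, and with rest and LPS fitted apart, also added, 29 genes were shared with LPS. Without probe sets that may cross-hybridise, Mocs1 turned to 0.0186 and Pop5 to 0.162, which rests on another probe set. For the 83 called genes with a name, 1099 of 1554 alternative values kept direction and call, 453 kept the direction and lost the call, and 2 reversed. Enpp4, Pik3ap1, Treml1, Abhd3, Pdpn, Gdf3, Stk11ip, Cxcl2, Map3k8, Klc4 and Crlf2, 11 in all, passed under all the other 19 alternatives. Of 1043 alternative list medians, 95 moved by more than the spread between replicates. Signal near the array median limits 20 of the 91 calls, in which the lower group's mean lies under it, and 11 in which both do.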

Other observations

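A few genes separated the 2 Tpl2-deficient arrays from each other rather than the genotypes. In 11 genes these arrays differed by more than 1 log2 unit at rest, next to 6 genes in the wild-type arrays. Of the 11, 5 differed the same way by more than 0.5 between the 2 Tpl2-deficient LPS arrays of the same replicate numbers, next to 5.03% of all genes that differ by that much there in either direction. Galc, a lysosomal galactolipid hydrolase, read 12.27 and 12.29 in wild-type but 6.35 and 11.68 in Tpl2-deficient replicates 1 and 2 at rest, and 6.22 and 9.91 in these replicates under LPS. Its genotype difference of -3.27 did not pass the test (adjusted p = 0.342). Slc15a2, a peptide transporter, read 4.18 and 8.04 at rest and 5.46 and 8.33 under LPS in the Tpl2-deficient replicates, next to 7.19 and 6.58 in wild-type cells at rest. Rab4a, a GTPase of early endosomes, read 9.15 and 7.59 at rest and 7.36 and 6.14 under LPS, and Wls, which carries Wnt proteins to the cell surface, read 10.18 and 11.35 and then 9.34 and 10.88. Uchl1 was the 1 gene of the 11 that passed the test at rest.

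Connective tissue genes were higher in Tpl2-deficient replicate 1 than in replicate 2 at rest. Col3a1, a fibrillar collagen gene, read 6.56 and 4.82, Col1a2 read 8.88 and 7.68 and Pdgfrb read 5.82 and 4.61. The wild-type arrays read 5.24 and 5.04, 8.28 and 8.31, and 5.12 and 5.12 for these genes.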
